A study of Mus musculus with 6 samples.

Results

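Short exonic circular RNAs (circRNAs) are small RNA rings spliced from annotated exons, and those examined here had a predicted spliced length of 250 nt or less. They were chosen by 2 columns of the deposited table, the class of the circRNA and its predicted length, and no read count entered the choice. Of 18136 listed circRNAs, 13133 were exonic, and 1238 of these, from 1026 host genes, were 250 nt or less, which leaves 11895 longer exonic circRNAs. The study profiled circRNA in A53T mice, a transgenic model of Parkinson disease that carries the mutation it is named for, and in wild-type (WT) mice, and sought circRNAs that differ between them. Each group had 3 libraries of total RNA treated with a circRNA enrichment kit, made with a strand-marking kit and read as paired ends of 150 bases. The samples are labelled brain, while the series text speaks of the substantia nigra of the midbrain. Nothing in the labels gives age, sex or the promoter of the transgene. Whether each library came from its own animal is also unstated, and the p-values therefore describe the spread between these libraries, which may be technical.

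A circRNA forms when the splicing machinery joins the end of a downstream exon back to the start of an upstream one, and the join, the back-splice junction, is what a sequencing read must cross to reveal the circle. Exons that circularise are usually flanked by long introns whose sequences can pair, and the second exon of a gene is a frequent start. Brain is rich in circRNAs, which resist exonucleases because they have no free ends. A junction read reveals where a circle begins and ends, so the inner exons and the length of every circle described here are predicted and were not observed.

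The sequences of 8 short circles are given as examples. Ssbp2, Med13l, Tlk1 and Camta1 are shown because they were among the 12 most read short circles. Tsg101 and N4bp2l2 are shown because their unadjusted p was among the smallest of those higher and lower in A53T. Gtf3c6 and Ube2g2 were among the shortest. Coordinates are in mm39 and the letters come from the matching exons of the GENCODE M21 transcripts (GRCm38). Each line runs 5′ to 3′ from the first to the last base of the predicted circle. The capitals mark the 10 bases on each side of the back-splice junction, where the last base is joined to the first.
Ssbp2, chr13:91672704-91712813, plus strand, 220 nt: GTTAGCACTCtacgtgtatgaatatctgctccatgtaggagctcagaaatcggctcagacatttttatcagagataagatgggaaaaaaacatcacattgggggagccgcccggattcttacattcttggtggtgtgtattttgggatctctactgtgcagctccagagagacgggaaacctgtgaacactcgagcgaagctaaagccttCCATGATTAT
Med13l, chr5:118731398-118731635, plus strand, 238 nt: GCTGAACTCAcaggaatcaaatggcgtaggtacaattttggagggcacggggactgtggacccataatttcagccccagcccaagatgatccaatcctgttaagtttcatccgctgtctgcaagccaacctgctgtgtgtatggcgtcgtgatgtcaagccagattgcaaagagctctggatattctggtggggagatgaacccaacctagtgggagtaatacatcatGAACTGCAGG
Tlk1, chr2:70600348-70617339, minus strand, 191 nt: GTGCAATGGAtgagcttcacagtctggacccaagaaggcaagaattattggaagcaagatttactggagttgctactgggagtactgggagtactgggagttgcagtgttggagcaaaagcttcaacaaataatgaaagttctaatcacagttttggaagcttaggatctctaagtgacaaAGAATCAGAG
Camta1, chr4:151914875-151920340, minus strand, 189 nt: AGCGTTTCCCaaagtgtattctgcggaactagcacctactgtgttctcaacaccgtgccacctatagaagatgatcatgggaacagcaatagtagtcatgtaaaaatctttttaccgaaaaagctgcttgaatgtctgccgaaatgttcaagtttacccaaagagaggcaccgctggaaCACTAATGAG
Tsg101, chr7:46550775-46553336, minus strand, 159 nt: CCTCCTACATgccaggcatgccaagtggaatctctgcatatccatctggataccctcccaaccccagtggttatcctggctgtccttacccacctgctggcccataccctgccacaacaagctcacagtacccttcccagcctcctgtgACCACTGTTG
N4bp2l2, chr5:150570466-150571013, minus strand, 166 nt: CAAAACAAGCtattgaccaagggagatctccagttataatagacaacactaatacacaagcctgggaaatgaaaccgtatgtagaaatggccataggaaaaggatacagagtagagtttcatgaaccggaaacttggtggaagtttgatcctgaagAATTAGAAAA
Gtf3c6, chr10:40130260-40130460, minus strand, 109 nt: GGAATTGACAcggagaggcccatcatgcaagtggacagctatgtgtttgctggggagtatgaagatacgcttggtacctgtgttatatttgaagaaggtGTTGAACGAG
Ube2g2, chr10:77466560-77466728, plus strand, 82 nt: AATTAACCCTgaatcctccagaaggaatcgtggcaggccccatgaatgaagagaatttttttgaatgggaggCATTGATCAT

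All of these 8 circles lay wholly within coding sequence, but they do not represent the class in this. The Hivep2 and Rsrc2 circles, without coding sequence in their named transcripts, and the Hnrnpu circle, coding in part, are not among those shown. The Med13l circle was a single exon, and the Ssbp2 circle joined exons 2 to 4. The Tsg101 circle, exons 6 and 7 of 10, has a length that is a multiple of 3 and held an ATG in a frame with no stop codon around the ring. Of the 8, Ube2g2 (82 nt) and Gtf3c6 (109 nt) were shorter than 1 read end of 150 bases.

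The libraries were shallow. They held 29839, 32187 and 33313 junction reads in A53T replicates 1, 2 and 3 and 33077, 36390 and 25217 in WT replicates 1, 2 and 3, and 1 read equalled 27.5 to 39.7 CPM by these totals. The CPM values given below are also scaled by TMM. Short exonic circRNAs took 2004 to 2692 of these reads per library and 13752 in all. The table lists a circRNA only where some library had at least 2 reads. Of the marker lists used here, neuron genes hosted listed circRNAs most often, 14 of 19, against 3 of 22 for dopaminergic neurons. The numbers were 6 of 15 for astrocytes, 6 of 19 for oligodendrocytes, 0 of 15 for microglia and 3 of 16 for endothelial and mural cells. This order depends on the genes listed, which were chosen with earlier results of these data known. The neuron list includes Rims1 and Rims2, hosts of 1729 and 1891 junction reads, while its Tubb3, Nefl, Elavl4, Slc17a7 and Gad1 hosted none. Th and Slc6a3, which define dopaminergic neurons, hosted no listed circRNA. A gene can be expressed without forming a circle, and in bulk RNA fewer cells of a type and less RNA per cell cannot be told apart.

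Most short circles were pairs of neighbouring exons from inside the coding sequence. By span and length, 1218 of the 1238 (98.4%) matched a run of exons of their named transcript. Of these, 152 (12.5%) held 1 exon, 833 (68.4%) held 2 exons, 207 (17.0%) held 3 and 26 held 4 or more, while longer exonic circRNAs had a median of 4 exons. Their median length was 208 nt (interquartile range 180 to 231 nt), against 636 nt for longer exonic circRNAs. The number listed grew with length, with 4 circles of up to 100 nt, 78 of over 100 to 150 nt, 446 of over 150 to 200 nt and 710 of over 200 to 250 nt. All 82 circles of up to 150 nt held more than 1 exon, and the shortest circle whose length equalled its genomic span was 152 nt. The shortest genomic span in the whole table was 150 nt, so 1-exon circles below that length have no entry in it. From over 100 to 150 nt to over 150 to 200 nt, circles of 1 exon rose from 0 to 88. Circles of 2 exons, whose span includes an intron, rose from 77 to 303 over the same step. The cause of the step was not tested.

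**Figure D1:**
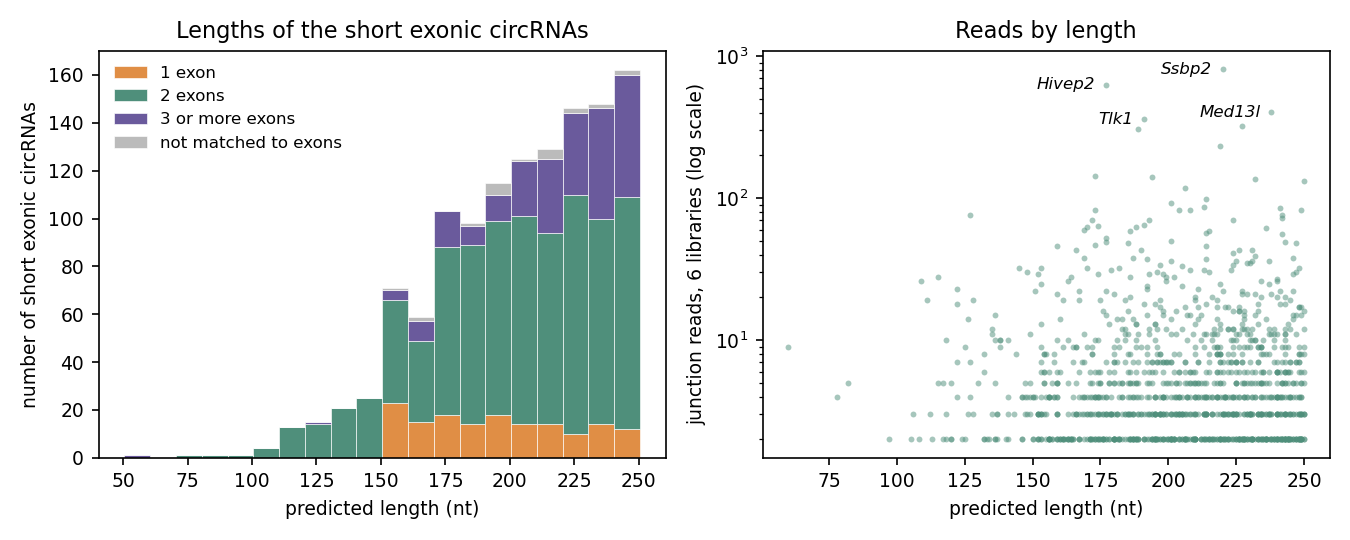
Left, the number of short exonic circRNAs by predicted length in nt (bins of 10 nt), coloured by number of exons; right, junction reads summed over the 6 libraries (log axis) by predicted length, with 1 point per circle. Circles of 1 exon (orange) begin at 152 nt, circles of 2 exons (green) make up most of every bin above 150 nt, and Ssbp2 and Hivep2 stand highest on the right.

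Exon 2 was the first exon of 353 short circles (29.0%), against 27.6% of longer exonic circRNAs. By the annotation of the named transcript, short circles lay wholly in coding sequence in 1010 cases (82.9%), against 83.0%. No coding sequence was held by 96 (7.88%), against 2.34%, and the start codon by 103 (8.46%), against 13.5%. The circles without coding sequence can lie in untranslated exons or in a transcript annotated with none. These cases were not told apart. Median GC content was 47.5%, against 47.7%. In the GRCm38 gene models the intron before a short circle had a median of 8430 nt, against 8258 nt, and the intron after it 7593 nt, against 6443 nt. A length divisible by 3 was found in 511 short circles (41.3%), against 38.3%, and 345 of those matched (28.3%) held an ATG frame without a stop, against 33.3%. A frame found in this way is a property of the letters and does not show translation. These shares describe the listed circles and carry no test.

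Many short circles overlapped other circles of their host gene. Of the 1238, 595 (48.1%) shared an end with another listed exonic circle, against 64.9% of longer ones, and 642 (51.9%) lay inside a larger circle, against 46.1%. They were the only listed exonic circle of their host in 261 cases (21.1%), against 13.1%. Where the host had others, the short circle was the most read in 254 of 977 cases (25.998%), against 24.2% for longer circles. A single short circle was listed for 862 hosts, and 164 hosts had more.

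Tfdp2, which encodes the dimerisation partner of E2F transcription factors, had 6 short circles among its 20 exonic circles, and they held 65 of its 135 exonic reads. Ptk2, the gene of focal adhesion kinase, had 4 of 30, with 252 of 486 reads. Cacna2d1, an auxiliary calcium channel subunit, and Dennd1a, a DENN domain protein of membrane traffic, had 4 of 12 each, with 53 of 158 and 41 of 115 reads. Dgki, a diacylglycerol kinase, had 4 of 35 with 36 of 567 reads, and Dpp10, an auxiliary subunit of Kv4 potassium channels, had 4 of 10 with 19 of 72 reads. At Dennd1a the 170-nt circle (exons 4 and 5) and the 214-nt circle (exons 3 to 5) ended at the same exon. The 170-nt circle had 4, 11 and 4 reads in A53T libraries and 5, 3 and 5 in WT libraries, and the 214-nt circle had 1, 2 and 0 in A53T libraries and none in WT libraries. Circles of 1 host thus share exons and are not independent of each other.

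The limit of 250 nt cut through a continuous range of lengths. The members exactly at 250 nt included Rsrc2, with 3, 19 and 16 reads in A53T libraries and 38, 28 and 27 in WT libraries, and Dennd2a, with 2, 4 and 0 in A53T and 6, 1 and 3 in WT libraries. Just outside, 1 nt longer, stood Lmx1a, with 7, 3 and 0 reads in A53T and 0, 0 and 7 in WT libraries, and Oxsr1, with 0, 4 and 4 in A53T and none in WT libraries. Lmx1a is a transcription factor of dopaminergic neurons.

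Most short circles had few reads and a handful had many. The median was 4 reads over the 6 libraries, as for longer exonic circRNAs, and 544 circles (43.9%) had 2 or 3 reads in all. Reads came from 1 library only for 513 circles (41.4%), against 40.6% of longer ones, while those read in every library, 132 circles (10.7%), held 57.9% of the short circle reads. The 12 circles with over 100 reads held 3720 reads, 27.1% of the total, and the Ssbp2 circle alone held 5.87%. Within each library a listed short circle averaged fewer reads than a listed longer one, at 1.73, 1.8998 and 1.70 reads against 2.01, 2.13 and 2.24 for longer circles in A53T libraries, and 1.99, 2.17 and 1.62 against 2.21, 2.42 and 1.67 in WT libraries. Short circles were lower in 6 of 6 libraries, by 0.26 reads per circle (SD of the difference 0.16, n = 6; exact two-sided paired permutation p = 0.03125, the smallest that 6 libraries allow). All libraries read the same listed circles, so this p covers the spread between libraries and not that between circles. The difference was 0.20 reads when longer circles of 1500 nt or more were left out, again in the same direction in every library. The next class, exonic circles of over 250 to 300 nt, held 9821 reads over 930 circles, beside 13752 over 1238 for the short ones. With the limit at 300 nt the difference, short minus longer, was -0.33 reads. No test showed the lower mean to be particular to circles of 250 nt or less.

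The most read short circle, from Ssbp2, which encodes a single-stranded DNA-binding protein that partners LIM-domain-binding cofactors, ranked 9 among exonic circRNAs and 10 among all circRNAs. It had 105, 146 and 129 reads in A53T libraries and 140, 173 and 114 in WT libraries. The ranges overlapped, and its mean level was 4019.9 ± 519 CPM in A53T and 4459 ± 380.3 CPM in WT libraries (SD, n = 3 each). The log2 fold change was -0.15 ± 0.18 (SE), and -0.044 without A53T replicate 1 and -0.24 without A53T replicate 2. It held 98.2% of the exonic junction reads of Ssbp2. Next came Hivep2, the gene of a large zinc finger transcription factor. Its 177-nt circle of exons 2 and 3 holds no coding sequence annotated in the named transcript. Hivep2 had 68, 103 and 113 reads in A53T libraries and 118, 118 and 108 in WT libraries. The lowest library was A53T replicate 1, the groups overlapped, and the log2 fold change was -0.28 ± 0.20 (SE), which was -0.10 without A53T replicate 1.

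The circles from Med13l and Tlk1 followed. Med13l encodes a part of the kinase module of Mediator, the bridge between transcription factors and RNA polymerase II, and its exon 2 circle had 53, 83 and 58 reads in A53T libraries and 77, 86 and 46 in WT libraries. Tlk1 encodes a tousled-like kinase that acts in chromatin assembly, and its 191-nt circle had 49, 55 and 63 reads in A53T libraries and 65, 70 and 57 in WT libraries. Both overlapped between the groups, with log2 fold changes of -0.074 ± 0.23 for Med13l and -0.19 ± 0.23 for Tlk1 (SE), for Tlk1 -0.12 without A53T replicate 1. The sign for Med13l depended on single libraries, with 0.038 without A53T replicate 1, 0.032 without A53T replicate 3 and 0.029 without WT replicate 2. Hnrnpu encodes a nuclear RNA-binding scaffold protein. Its circle, exons 4 to 6 and the only exonic circle listed for the gene, had 61, 54 and 65 reads in A53T libraries and 45, 55 and 40 in WT libraries. After scaling every A53T library was above every WT library, at 1912 ± 198 CPM in A53T and 1471 ± 131 CPM in WT (SD, n = 3 each), and the log2 fold change of 0.38 ± 0.24 (SE) had an adjusted p of 0.993.

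Camta1, a calmodulin-binding transcription activator, had 51, 62 and 45 reads in A53T libraries and 39, 70 and 37 in WT libraries, and its log2 fold change of 0.14 ± 0.26 (SE) was -0.019 without WT replicate 1. The 219-nt Ptk2 circle had 32, 32 and 47 reads in A53T and 44, 54 and 22 in WT libraries, with -0.069 ± 0.28 (SE) and 0.13 without WT replicate 2, 0.012 without A53T replicate 1 and 0.048 without A53T replicate 2. The groups overlapped for both genes. Cacna1b encodes the pore of N-type calcium channels, which serve transmitter release. Its 173-nt circle had 13, 23 and 27 reads in A53T and 22, 43 and 14 in WT libraries, and the log2 fold change of -0.28 ± 0.36 (SE) was 0.17 without WT replicate 2. Tcf25 had 11, 42 and 22 reads in A53T and 28, 14 and 24 in WT libraries, with 0.17 ± 0.39 (SE), which was -0.41 without A53T replicate 2 and -0.13 without WT replicate 2. WT replicate 2 was the highest of its group for the Cacna1b circle and the lowest for the Tcf25 circle.

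Acap2 encodes a GTPase-activating protein for Arf6, and its circle had 12, 22 and 23 reads in A53T libraries and 25, 28 and 26 in WT libraries. All 3 A53T libraries lay below the WT libraries, with a log2 fold change of -0.47 ± 0.35 (SE) and an adjusted p of 0.993, and it was -0.24 without A53T replicate 1. Rfx7, a transcription factor of the RFX family, had 26, 20 and 16 reads in A53T and 18, 20 and 18 in WT libraries, with 0.16 ± 0.37 (SE), which was -0.063 without A53T replicate 1. Of the 12 most read circles, 8 had a log2 fold change below 0, against 58.5% of tested short circles and 51.6% of all tested circRNAs. This count carries no test. In 8 of 12 the first exon was exon 2, against 42 of the 94 tested short circles (44.7%) and 29.0% of all matched ones. Each of the 12 was the most read exonic circle of its host, and their shares of host reads ran from 47.5% (Ptk2) to 100% (Hnrnpu).

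**Figure D2:**
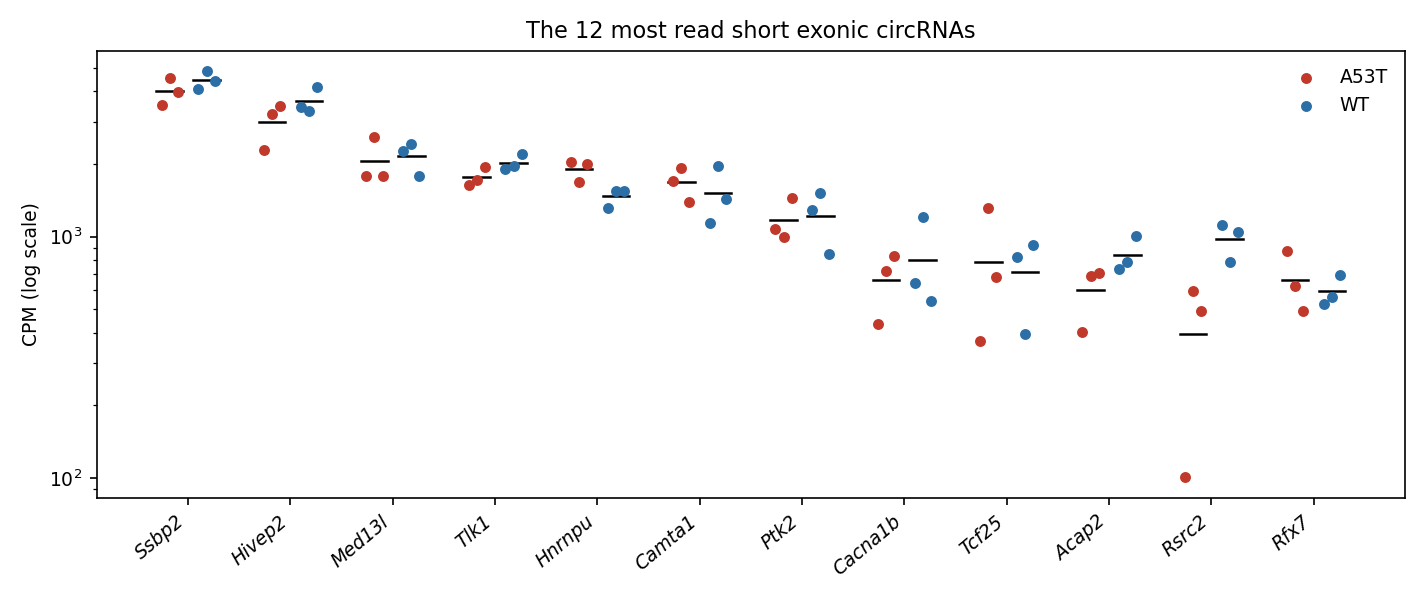
Level in CPM (log axis) of the 12 most read short exonic circRNAs in each library, A53T in red and WT in blue, with the group means as bars; n = 3 libraries each. The colours overlap for 9 of the 12, A53T lies above WT for Hnrnpu, and A53T lies below WT for Acap2 and Rsrc2. Over all tested circRNAs the groups did not overlap for 11.3%.

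Short exonic circRNAs took a smaller share of the junction reads in A53T libraries than in WT libraries, by less than 1 percentage point. The share was 7.18%, 7.31% and 6.30% in A53T replicates 1, 2 and 3 (95% Wilson intervals 6.89 to 7.47%, 7.03 to 7.60% and 6.05 to 6.57%) and 7.45%, 7.40% and 7.95% in WT replicates 1, 2 and 3 (7.17 to 7.73%, 7.13 to 7.67% and 7.62 to 8.29%). A53T replicate 3 was the lowest and WT replicate 3, the shallowest library, the highest. The means were 6.93 ± 0.55% in A53T and 7.60 ± 0.30% in WT libraries (SD, n = 3 each), a difference of -0.67 points. The groups did not overlap, and the exact two-sided permutation p of 0.1 is the smallest that 3 against 3 libraries allow, so the comparison cannot pass 0.05. Without A53T replicate 3 the difference was -0.36 points. Without molecular identifiers, reads may be PCR copies of 1 molecule, so the intervals cover counting error only. The counting intervals of A53T replicates 1 and 2 overlapped those of WT replicates 1 and 2.

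The share also moves with what other circRNAs take. The most abundant circRNA of the series, a 2927-nt circle of Cdr1os, took 4.02%, 3.86% and 4.06% of the reads in A53T libraries and 0.919%, 3.14% and 2.81% in WT libraries. With its reads left out of the totals, the short share was 7.22 ± 0.56% in A53T and 7.78 ± 0.35% in WT libraries (SD, n = 3 each), the groups overlapped and the exact permutation p was 0.2. Without the 12 most read short circles the difference was -0.48 points, with overlap and an exact permutation p of 0.4. By length class, circles of up to 150 nt took 0.289% of reads in A53T and 0.365% in WT libraries, those of over 150 to 200 nt 2.61% in A53T and 2.87% in WT, and those of over 200 to 250 nt 4.03% in A53T and 4.36% in WT. Longer exonic classes were also lower in A53T up to 1000 nt, with 5.02% in A53T and 5.32% in WT for over 250 to 300 nt and 21.6% in A53T and 22.98% in WT for over 300 to 500 nt. Those over 1000 nt, the class that holds the Cdr1os circle, were higher, with 21.5 ± 0.46% in A53T and 18.7 ± 2.18% in WT (SD, n = 3 each). No test showed the lower share to be particular to circles of 250 nt or less.

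Other summaries of the short circles overlapped between the groups. Circles with at least 2 reads numbered 401, 402 and 368 in A53T libraries and 402, 459 and 352 in WT libraries, and the exact permutation p was 0.8. Thinned to the depth of the smallest library, these numbers averaged 320.7 ± 28.7 in A53T and 337.7 ± 14.0 in WT libraries (SD, n = 3 each; exact permutation p = 0.5). Circles of 1 exon, as judged by a span equal to the length, held 10.5 ± 0.27% of the short circle reads in A53T and 10.9 ± 0.93% in WT libraries (exact permutation p = 0.6). In the 746 hosts that list both short and longer exonic circles, the short ones held 17.1 ± 1.07% of the exonic reads in A53T and 18.2 ± 0.85% in WT libraries (exact permutation p = 0.2), a difference of -1.14 points that was -0.54 without A53T replicate 3 and -0.67 without WT replicate 3. The sign of the first difference turned without WT replicate 2, to 13.3 circles more in A53T, and that of the 1-exon share turned to 0.016 points.

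**Figure D3:**
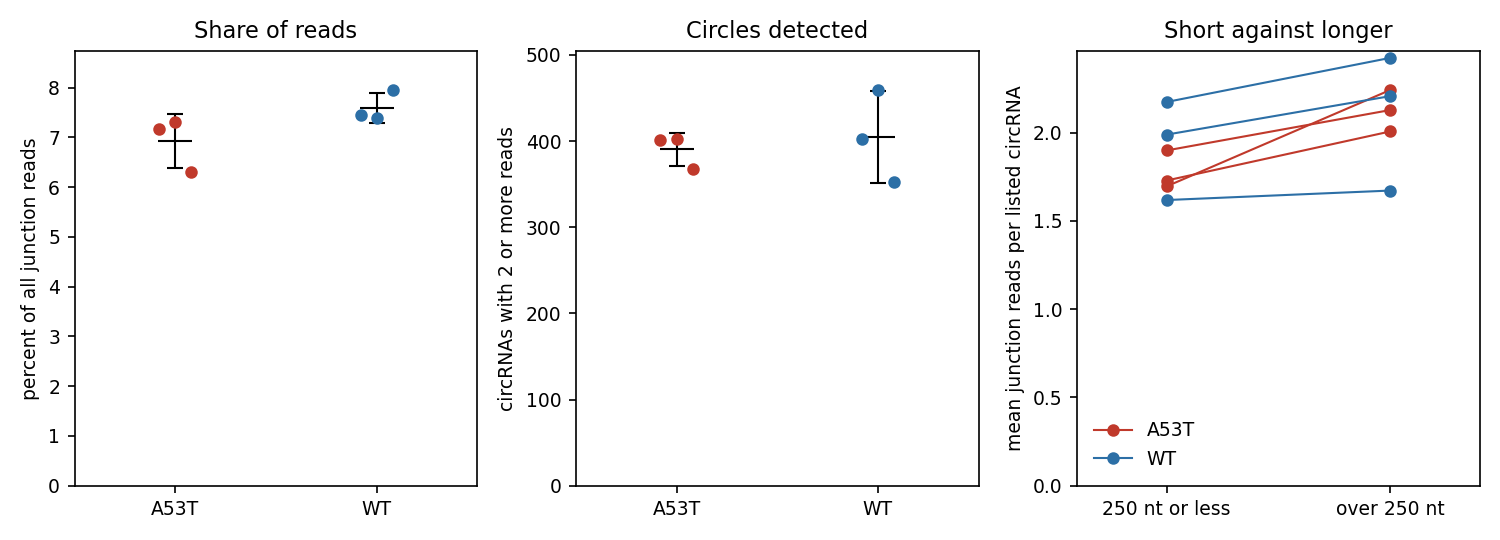
Left, percent of all junction reads in short exonic circRNAs; middle, number of short exonic circRNAs with 2 or more reads; right, mean junction reads per listed exonic circRNA of 250 nt or less and of over 250 nt, with a line for each library. Points are libraries (A53T red, WT blue, n = 3 each), bars are mean ± SD. A53T lies below WT on the left (6.93 and 7.60%), the groups overlap in the middle, and every line on the right is lower at 250 nt or less.

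No short exonic circRNA passed the test between A53T and WT. With a filter of at least 5 reads in at least 3 libraries, 94 of the 1238 (7.59%) could be tested, from 94 hosts and with 54.2% of the short circle reads. Of these, 91 had libraries with 5 reads in both groups. The other 3 entered the test through the group where they were higher, N4bp2l2 and Zfp827 through WT and a 199-nt Tasp1 circle through A53T, and so had to differ. In edgeR's quasi-likelihood test with Benjamini-Hochberg adjustment over all 1214 tested circRNAs, 0 of 94 were called, as were 0% of all tested, and the lowest adjusted p among the 94 was 0.478. At an unadjusted p under 0.05 there were 3 (3.19%), 1 higher (1.06%) and 2 lower (2.13%), against 4.7%, 2.31% and 2.39% of all tested circRNAs. DESeq2, edgeR's exact test and limma-voom called 0 short circles as well, with 3, 3 and 2 at an unadjusted p under 0.05 (3.19%, 3.19% and 2.13%, against 4.2%, 4.7% and 4.61% of all tested). Without A53T replicate 2, edgeR's quasi-likelihood test put 6 of 77 under it (7.79%, against 4.29%). The groups did not overlap for 11 of 94 (11.7%), against 11.3% of all tested, with A53T above for 4 (4.26%, against 5.19%) and below for 7 (7.45%, against 6.1%). The log2 fold change was below 0 for 55 (58.5%), against 51.6%, and its median was -0.11, against -0.0095. Among the 91 circles with 5 reads in libraries of both groups, 2 (2.2%) had an unadjusted p under 0.05, against 3.73% of all such circRNAs, 8 (8.79%) did not overlap, against 8.89%, and 53 (58.2%) were below 0, against 51.9%. Fitted standard errors ran from 0.18 to 1.18 on the log2 scale, so changes of the size of these medians were not detectable for single circles at this depth.

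**Figure D4:**
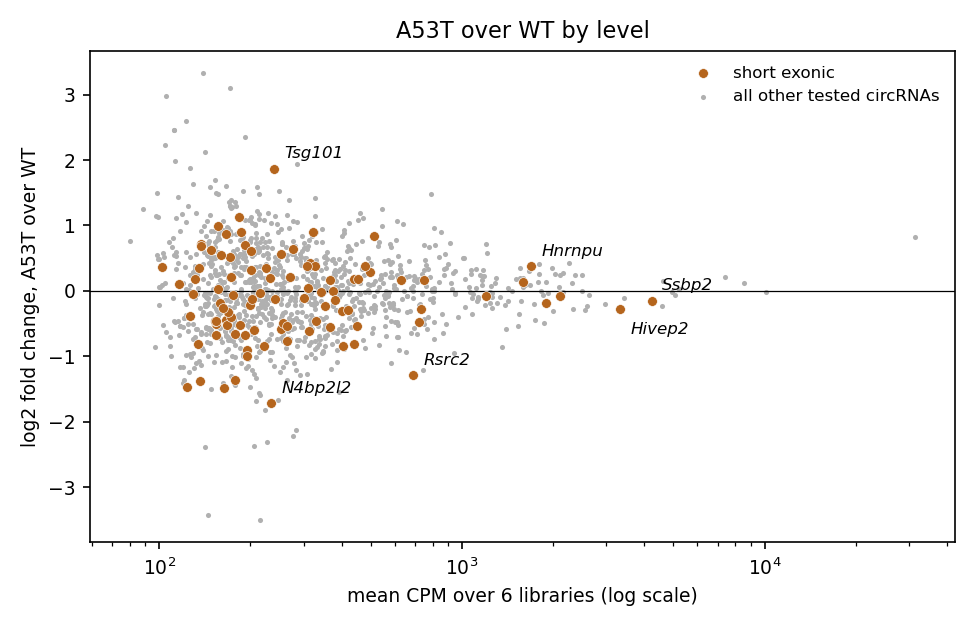
Log2 fold change, A53T over WT, against the mean CPM of 6 libraries (log axis), for the 94 tested short exonic circRNAs (orange) and all other tested circRNAs (grey). The orange points spread on both sides of 0 among the grey ones and narrow as the level rises, from Tsg101 at 1.87 and N4bp2l2 at -1.71 to Ssbp2 at -0.15.

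Tsg101, whose protein is a subunit of ESCRT-I, the complex that sorts ubiquitinated cargo into endosomes, had the highest fold change of the tested short circles. Its circle had 10, 19 and 7 reads in A53T libraries and 5, 5 and 0 in WT libraries. Every A53T library was above every WT library, at 381 ± 193 CPM in A53T and 95.7 ± 83.0 CPM in WT (SD, n = 3 each). The log2 fold change was 1.87 ± 0.73 (SE), with an unadjusted p of 0.0155 and an adjusted p of 0.725 from edgeR. The circle held 88.5% of the exonic junction reads of its host, and its letters, shown above, read through without a stop. Leaving out each library in turn gave log2 fold changes of 1.38 to 2.25.

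Other circles with the smallest p among those higher in A53T had few reads. Tom1l2, an adaptor of endosomal sorting, had 7, 8 and 9 reads in A53T and 4, 5 and 2 in WT libraries, without overlap, and a log2 fold change of 1.13 ± 0.74 (SE). St3gal5, the synthase of ganglioside GM3, had 14, 19 and 7 reads in A53T and 14, 6 and 2 in WT libraries, with 0.91 ± 0.57 (SE). It was 1.72 without WT replicate 1 and 0.55 without WT replicate 3. Fndc3a had 32, 11 and 19 reads in A53T and 12, 19 and 5 in WT libraries, with 0.84 ± 0.46 (SE), which was 0.36 without A53T replicate 1. Both St3gal5 and Fndc3a overlapped between the groups. Golph3, a Golgi protein that binds phosphoinositide, had 2, 11 and 7 reads in A53T and 6, 2 and 2 in WT libraries, a log2 fold change of 0.99 ± 0.82 (SE). Zfp148, a zinc finger factor, had 11, 3 and 6 in A53T and 5, 3 and 3 in WT libraries, with 0.87 ± 0.78 (SE). For Golph3 and Zfp148 the groups overlapped, and every adjusted p of the circles named here was at or above 0.991.

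The smallest p among all tested short circles belonged to Rsrc2, a gene named for its arginine- and serine-rich domain. Its 250-nt circle of exons 2 and 3 holds no coding sequence annotated in the named transcript. The circle had 3, 19 and 16 reads in A53T libraries and 38, 28 and 27 in WT libraries. All A53T libraries lay below all WT libraries, at 396 ± 260.4 CPM in A53T and 982 ± 172 CPM in WT (SD, n = 3 each). A53T replicate 1 was the lowest by far. The log2 fold change was -1.28 ± 0.40 (SE), with an unadjusted p of 0.00312 and an adjusted p of 0.478 from edgeR, and it was -0.83 without A53T replicate 1 and -1.67 without A53T replicate 2. The circle held 73.6% of the exonic junction reads of its host.

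N4bp2l2 had the lowest fitted fold change, in a circle tested only because its WT libraries passed the filter. Its 166-nt circle, exons 4 and 5 and the only exonic circle listed for the gene, had 3, 4 and 3 reads in A53T libraries and 10, 9 and 14 in WT libraries. The groups did not overlap, at 106 ± 16.8 CPM in A53T and 363 ± 156 CPM in WT (SD, n = 3 each). The log2 fold change was -1.71 ± 0.70 (SE), and without any 1 of the WT libraries the circle no longer met the filter. St13, a cochaperone of Hsp70, had 8, 12 and 7 reads in A53T and 15, 18 and 16 in WT libraries, also without overlap, with -0.85 ± 0.48 (SE). Zfp827, whose 234-nt circle is exon 5 alone, had 2, 2 and 3 reads in A53T and 9, 5 and 5 in WT libraries, without overlap and with -1.38 ± 0.90 (SE), and it too entered the test through WT libraries alone. These Zfp827 reads were 5.27% of the exonic reads of the host, in contrast to 100% for N4bp2l2.

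Other circles with small p lower in A53T overlapped between the groups. Ubxn7, an adaptor of the p97 segregase, had 1, 5 and 2 reads in A53T and 16, 1 and 6 in WT libraries, with -1.48 ± 0.87 (SE). Galnt2, an enzyme that starts O-linked glycosylation, had 3, 5 and 1 in A53T and 3, 8 and 12 in WT libraries, with -1.36 ± 0.82 (SE). Fam135a had 6, 20 and 4 in A53T and 21, 15 and 17 in WT libraries, with -0.81 ± 0.50 (SE), which was -1.76 without A53T replicate 2 and -0.41 without A53T replicate 3. Adjusted p was 0.991 or more for St13 and these circles.

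**Figure D5:**
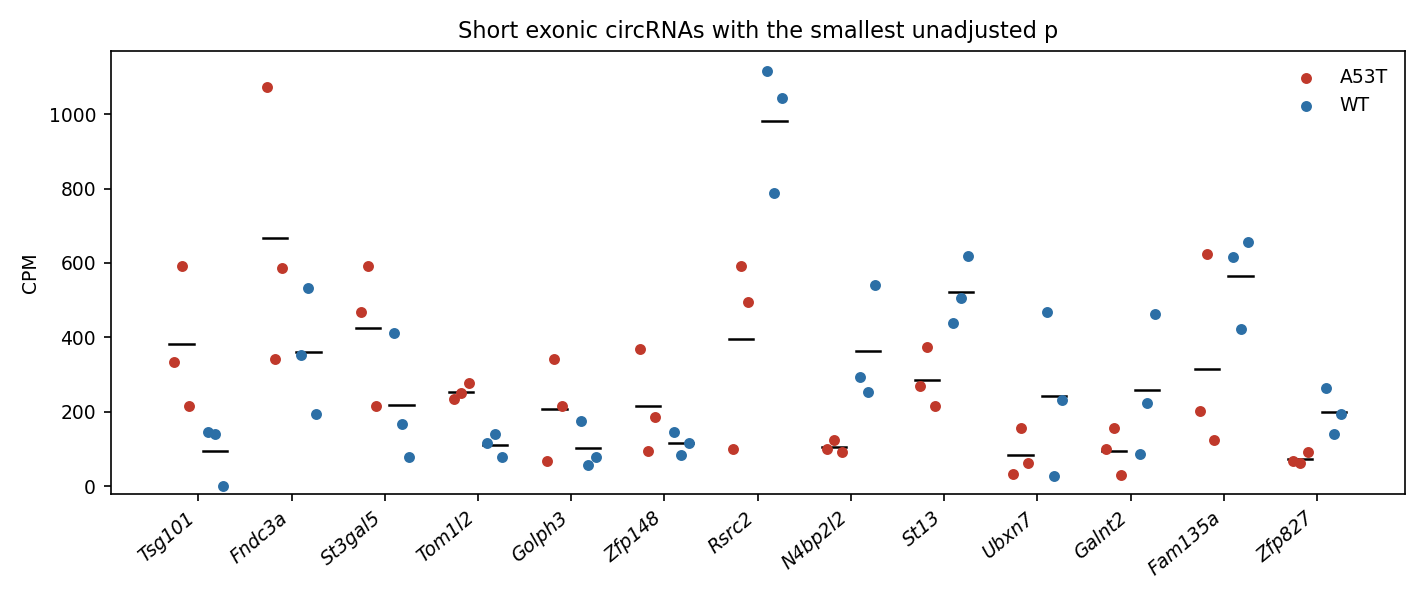
CPM in each library for the tested short exonic circRNAs with the smallest unadjusted p in each direction, with Hnrnpu and Hivep2 plotted among the most read circles instead; A53T red, WT blue, bars are group means, n = 3 libraries each. Tsg101 and Tom1l2 lie higher in A53T and Rsrc2, N4bp2l2, St13 and Zfp827 lower, without overlap, while the others overlap.

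Beyond the tested circles, 1144 short circles had too few reads to test. Over all 1238, 316 were read in A53T libraries only, with at most 11 reads, 325 in WT libraries only, with at most 10 reads, and 597 in both. Those read in 1 group only and in at least 2 of its libraries numbered 60 for A53T (4.85%, against 4.26% of all listed circRNAs) and 68 for WT (5.49%, against 3.6%). The most read of the circles seen only in A53T libraries was that of Mapk14, the p38 alpha kinase, with 0, 7 and 4 reads in A53T and none in WT libraries. Adcy1, a calmodulin-stimulated adenylyl cyclase, had 1, 5 and 4. The ratio of the level in A53T to a floor of 3 reads over the WT group was 3.72 for Mapk14 and 3.38 for Adcy1. Tmem131 had 1, 1 and 7 reads in A53T libraries and Tmem241 had 1, 7 and 0, both with none in WT libraries.

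Among circles seen only in WT libraries, Rfx3, a transcription factor of ciliated cells, had none in A53T libraries and 0, 2 and 8 reads in WT libraries. Dgkh, a diacylglycerol kinase, had 1, 2 and 6 in WT libraries, Kif1b, an axonal kinesin, 5, 4 and 0, Psme4, a proteasome activator, 1, 0 and 7, and 5730455P16Rik 3, 2 and 3, each with none in A53T libraries. The ratio of the level in WT to a floor of 3 reads over the A53T group was 3.29 for Rfx3 and 2.63 for 5730455P16Rik. Adcy1, Tmem131, Dgkh and 5730455P16Rik were read in all 3 libraries of their group. These circles were picked for being absent from 1 group. The ratios do not cover that choice, the counting error of the reads seen or the spread between libraries.

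The shortest circles named here were picked among those with at least 5 reads. They had 5 to 28 reads in all, against a median of 4 for short circles, and none met the filter of the test. The 109-nt Gtf3c6 circle, from a subunit of transcription factor IIIC, had 7, 6 and 4 reads in A53T and 3, 2 and 4 in WT libraries, and was the only exonic circle listed for its gene. The 115-nt circle of Psma3, a proteasome subunit, had 8, 3 and 3 in A53T and 2, 9 and 3 in WT libraries. The 82-nt circle of Ube2g2, a ubiquitin-conjugating enzyme, was read in 1 library of each group, with 2 reads in A53T replicate 2 and 3 in WT replicate 2. Spats2l (111 nt) had 7, 0 and 0 reads in A53T and 4, 5 and 3 in WT libraries.

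Genes of the presynaptic active zone and vesicle release hosted 22 short circles, from 14 of 52 listed genes, with 28, 25 and 27 reads in A53T libraries and 33, 36 and 30 in WT libraries. The only one tested, of Erc2, an active zone scaffold, had 9, 8 and 10 reads in A53T and 7, 6 and 10 in WT libraries, with a log2 fold change of 0.21 ± 0.60 (SE), which was -0.012 without WT replicate 2. Postsynaptic genes hosted 21 short circles, from 20 of 65 genes, with 37, 26 and 25 reads in A53T and 21, 28 and 32 in WT libraries. Nlgn1, a postsynaptic adhesion molecule, was the one tested, with 19, 15 and 16 reads in A53T and 10, 6 and 21 in WT libraries and 0.38 ± 0.48 (SE), -0.0067 without WT replicate 2. Ion channel genes hosted 19, from 13 of 53 genes, with 31, 47 and 47 reads in A53T and 44, 67 and 36 in WT libraries, and the Cacna1b circle was the one tested. Neuronal adhesion and guidance genes hosted 17, from 15 of 83 genes, with 11, 25 and 22 reads in A53T and 20, 19 and 13 in WT libraries. Of that list the catenin gene Ctnna2 was tested, with 0.36 ± 1.18 (SE) and -0.14 without WT replicate 3. No circle of these lists was called. The summed presynaptic reads were lower in every A53T library than in every WT library, and the sums of the other lists named here overlapped. The share of reads in all short circles was also lower in every A53T library (6.30 to 7.31%) than in every WT library (7.40 to 7.95%). No test showed the separation to be particular to presynaptic hosts. Of the 9 gene lists by function, only this one and that of autophagy and lysosome, higher in A53T, did not overlap.

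Of the 9 gene lists by function, that of chromatin and transcription regulators gave the most reads and was also the longest. Chromatin and transcription genes hosted 34 short circles, from 24 of 88 genes, with 87, 71 and 55 reads in A53T and 68, 91 and 40 in WT libraries. Of the 3 tested, Kansl1, of a histone acetyltransferase complex, had 20, 16 and 9 reads in A53T and 7, 20 and 13 in WT libraries, Kmt2c, a histone methyltransferase, 12, 10 and 14 in A53T and 13, 26 and 7 in WT, and Rere, a nuclear corepressor, 12, 4 and 0 in A53T and 5, 12 and 1 in WT. Their log2 fold changes were 0.19 ± 0.47, -0.29 ± 0.47 and -0.060 ± 0.85 (SE), with overlap in each. Each turned sign without a single library: Kansl1 to -0.14 without WT replicate 1 and -0.097 without A53T replicate 1, Kmt2c to 0.22 without WT replicate 2, and Rere to 0.13 without A53T replicate 2 and 0.54 without A53T replicate 3.

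RNA-binding and splicing genes hosted 23 short circles, from 15 of 75 genes, with 51, 53 and 40 reads in A53T and 80, 57 and 50 in WT libraries. Of the 4 tested, Rsrc2 is described above. Ddx17, an RNA helicase, had 15, 10 and 3 reads in A53T and 10, 3 and 6 in WT libraries, with 0.57 ± 0.67 (SE), which was 0.020 without A53T replicate 1 and 1.01 without A53T replicate 3. Rbfox1, a neuronal splicing factor, had 10, 5 and 1 in A53T and 2, 6 and 2 in WT for its exon 4 circle, with 0.72 ± 0.92 (SE), which was 1.23 without A53T replicate 3. Stau2, which carries RNA into dendrites, had 6, 4 and 1 in A53T and 5, 0 and 5 in WT libraries, with 0.11 ± 1.118 (SE) and -0.49 without WT replicate 2. Ubiquitin ligase and deubiquitinase genes hosted 29, from 21 of 83 genes, with 33, 37 and 34 reads in A53T and 25, 49 and 42 in WT libraries. There Trim37 was at -0.68 ± 0.77 (SE), 0.096 without WT replicate 2, and Usp25 at 0.21 ± 0.78 (SE), -0.19 without WT replicate 1 and -0.091 without WT replicate 2. None of the 6 passed the test, with adjusted p of 0.993 or more outside Rsrc2.

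Parkinson disease genes hosted 8 short circles, from 5 of 36 genes, with 20, 7 and 6 reads in A53T libraries and 3, 4 and 9 in WT libraries. Reads of A53T replicate 1 were the highest, and the groups overlapped. None could be tested. The most read were a 122-nt circle of Stk39, a kinase of ion transport that lies near a Parkinson disease risk locus in human, with 8, 2 and 2 reads in A53T and 1, 1 and 4 in WT libraries, and a 226-nt circle of Gigyf2, a regulator of translation, with 6, 2 and 1 in A53T and 0, 0 and 2 in WT libraries. A 158-nt circle of Synj1, a phosphatase of synaptic vesicle recycling, had 0, 3 and 0 in A53T and 0, 0 and 1 in WT libraries.

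Autophagy and lysosome genes hosted 8 short circles, from 7 of 63 genes, with 6, 13 and 10 reads in A53T libraries and 2, 7 and 4 in WT libraries. As a percent of junction reads these were 0.0201, 0.0404 and 0.0300 in A53T and 0.0060, 0.0192 and 0.0159 in WT libraries, and the groups did not overlap. The sum rests on 42 reads. The circles with most reads were those of Rb1cc1, a subunit of the autophagy-starting ULK1 complex, with 3, 5 and 0 reads in A53T and none in WT libraries, Uvrag, a partner of Beclin, with 0, 4 and 0 in A53T and 1, 0 and 4 in WT, Wdfy3, an adaptor of selective autophagy, with 2, 2 and 0 in A53T and 1, 1 and 0 in WT, and Lamp2, a lysosomal membrane protein, with none in A53T and 0, 6 and 0 in WT. The other 4 circles of the list held 1, 2 and 10 reads in A53T and none in WT libraries, which includes every read of the list in A53T replicate 3, so the separation of the groups rests on them. No circle of the list could be tested.

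Markers of cell types hosted few short circles. Neuron markers hosted 7, from 5 genes, with 14, 9 and 3 reads in A53T and 8, 17 and 5 in WT libraries. The single short circle of a dopaminergic marker gene, from Sox6, had 1, 0 and 0 reads in A53T and 3, 0 and 0 in WT libraries, and the 2 of an astrocyte marker, both from the bicarbonate transporter gene Slc4a4, had none in A53T and 2, 2 and 0 in WT libraries. Oligodendrocyte, microglia, and endothelial and mural markers hosted none. The part of cell composition in the comparisons above was not tested.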

How the data were processed

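The deposited table gives junction read counts per circRNA and library and, per the file headers, the authors' log2 CPM; per the submitters' processing notes cutadapt 1.9.3, STAR, edgeR 3.16.5 and mm39 were used. The sources used here name neither the circRNA caller nor the strand setting of the counting. The deposited log2 CPM served only as a check against the counts (prior count 2, largest difference 0.122). Library size was the sum of all junction reads, and CPM were TMM-scaled. edgeR 4.0.16 (quasi-likelihood, robust) in R 4.3.3 was fitted to all 1214 circRNAs with at least 5 reads in at least 3 libraries, with a two-sided threshold of 0.05 on Benjamini-Hochberg adjusted p, and was tested on simulated counts. Per-library values were compared with exact permutation tests in scipy 1.17.1. Alternatives were other scalings, filters and length limits, DESeq2 1.42.0, limma-voom (limma 3.58.1), a replicate block, edgeR's exact test and omission of each library; omission of the 12 most read short circles and of circles of 1 library, from the share or from the reads per circle, was chosen after seeing the data.

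Coordinates (mm39, 1-based) are as deposited. Exons and sequences come from GENCODE M21 transcripts, matched by span and spliced length; no coordinates were converted. The circles named are the 12 most read, the 8 tested ones with the smallest p in each direction, the 5 shortest with at least 5 reads, those at the length limit, the 5 most read in 1 group only, the 6 hosts with most short circles and up to 4 per gene list. Some circles that this rule names are not reported here. The members and lists were chosen with earlier results of these data known. Figures were drawn with matplotlib 3.10.9.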

Additional observations from a re-analysis of the deposited data

How the results depend on the processing

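The short share of reads stayed lower in A53T under every alternative, by 0.34 points at 200 nt, 0.96 at 300 nt and 0.36 to 0.86 when 1 library was left out; no setting allowed an exact p under 0.1. The number of circles with 2 reads moved to 13.3 more in A53T without WT replicate 2 (range -40.2 to 13.3), and the 1-exon share to 0.016 points without WT replicate 2 (range -0.91 to 0.016) and 0.043 at 200 nt. Reads per listed circle stayed lower for short circles (-0.30 to -0.21 leaving out 1 library, where the exact p of 0.0625 is the smallest possible). The share of reads from circles whose length is a multiple of 3 was 0.33 points higher in short than in longer circles (exact permutation p = 0.719) and depended on the limits: 6.33 points at 200 nt (exact permutation p = 0.03125), -0.22 at 300 nt, -0.80 against longer circles under 1500 nt and -0.15 without WT replicate 2 (range -0.15 to 0.74); the cause was not tested. Short circles called stayed at 0 in all 16 alternatives. Over all circRNAs 1 was called with at least 10 reads in 3 libraries, 1 with limma-voom and 0 to 1 leaving out 1 library. Short circles at an unadjusted p under 0.05 numbered 1 of 37 with at least 10 reads (2.7%, against 6.55% of all tested). They were 7 of 278 with at least 2 reads (2.52%, against 3.95%) and 19 of 1238 with no filter (1.53%, against 1.18%). Leaving out 1 library gave 2 to 6 (2.47 to 7.79%, against 4.29 to 6.26% of all tested). No label says that replicate numbers pair the samples. Correlations of same-numbered deviations were -0.03, 0.01 and 0.02, which at this depth cannot exclude a pairing. A replicate block left 0 short circles called and 3 at an unadjusted p under 0.05 (3.19%, against 3.87% of all tested).

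Of 530 values of the 36 named tested circles under alternatives, 24 turned sign and 0 passed the threshold (lowest adjusted p 0.221). Rere stood at 0.0022 in DESeq2, and all others that turned did so when 1 library was left out. Over these omissions the log2 fold change ran from -0.27 to 0.038 for Med13l, -0.019 to 0.40 for Camta1, -0.26 to 0.13 for Ptk2, -0.48 to 0.17 for Cacna1b, -0.41 to 0.51 for Tcf25, -0.063 to 0.34 for Rfx7, -0.0067 to 1.19 for Nlgn1, -0.14 to 0.48 for Kansl1, -0.54 to 0.22 for Kmt2c, -0.012 to 0.60 for Erc2, -1.13 to 0.096 for Trim37, -0.48 to 0.54 for Rere, -0.19 to 1.29 for Usp25, -0.49 to 0.57 for Stau2 and -0.14 to 0.82 for Ctnna2. Depth limits all of this: 1144 of 1238 short circles had too few reads to test.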
